A study of Oryza sativa with 2 samples.

Results

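The DREB genes of rice encode AP2/ERF transcription factors that bind the dehydration-responsive element, and 7 of them, chosen by locus identifier, were followed among the 57446 genes of an FPKM table of young panicles. Of these, 5 are of the DREB1 type (DREB1A, DREB1B, DREB1H, DREB1C and DREB1G) and 2 of the DREB2 type (DREB2A and DREB2B). The panicles were shorter than 2 cm and came from the wild-type line XD1B or from the mutant lf2, whose affected gene, LATERAL FLORET 2, encodes a chromatin remodelling factor of the SNF2 kind according to the series title. A single library of total RNA was listed for each genotype. Neither the lf2 allele nor the number of pooled panicles, their age or their growing conditions are given in the sources used here, and no treatment is named for either group. Because neither group is replicated, each difference is one between single libraries, and no p-value can be given. All 7 genes were listed at a higher level in lf2, but DREB1C and DREB1G stayed under FPKM 1 in both libraries. The share of all genes higher in lf2 was not counted. Over the 22150 genes that reached FPKM 1 in either library, the median difference was downwards. Among the DREB genes with a ratio, DREB1A differed most.

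DREB factors sit between the sensing of stress and the genes that protect cells from water loss. In rice, DREB1 genes, the counterparts of the CBF genes of Arabidopsis, are best known for transcription that is switched on by cold, while DREB2 genes are best known for drought, salt and heat. Their products recognise the same short element in target promoters, such as those of dehydrin genes. In Arabidopsis, DREB2A protein also needs to be stabilised before it acts, so transcript levels of this class do not stand for activity.

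The libraries held 29111345 fragments for XD1B and 27373727 for lf2, as recovered from the steps of the FPKM values. The intervals below are exact Clopper-Pearson 95% intervals of a ratio of FPKM from fragments per gene. They cover counting error only. FPKM is a level per kilobase of gene, scaled to the library total, so levels may be set side by side between genes. The log2 ratio is log2((lf2 FPKM + 1)/(XD1B FPKM + 1)), whose pseudocount understates the difference of low genes. The 2-fold rule, a criterion of size and not a test, is met upwards by a value of 1 or more and downwards by one of -1 or less. Genes reaching FPKM 1 in XD1B or lf2 are called measured. The median log2 ratio of the 22150 measured genes was -0.31. All 4 panicle markers were detected in both libraries and were lower in lf2, 3 of them past the 2-fold rule, beside 8.23% of all measured genes. DL, a carpel and midrib gene, stood at 40.3 FPKM in XD1B and 11.4 in lf2. G1, a sterile lemma gene, stood at 20.5 and 5.63, and MADS1, a lemma and palea gene, at 189.6 and 73.2. The meristem gene OSH1, at 86.6 and 60.7, did not pass the rule. When lf2 was rescaled so that the median ratio was 1, only DL and G1 of these markers passed, beside 1.73% of all measured genes downwards. The root genes NAS1 and LSI2 were listed at 0 in both, and the tapetum genes TDR and EAT1 stayed under FPKM 1. Of 4 green leaf markers, 2 were past the rule downwards, and 0 with that scaling. The chlorophyll-binding protein gene CAB1R stood at 49.96 and 21.2 FPKM, its relative CAB2R at 46.8 and 32.6, and RCA, the Rubisco activase gene, at 7.80 and 2.63. RBCS, for the small subunit of Rubisco, stood at 7.66 FPKM in XD1B and had a ratio of 0.913, with an interval from 0.757 to 1.10 that includes 1. The summed FPKM was 337 and 151 for the panicle markers and 112 and 63.4 for the leaf markers, in XD1B and lf2. In such bulk RNA, fewer cells of a type and less RNA per cell cannot be told apart.

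DREB1A (LOC_Os09g35030), a cold-inducible gene of the rice DREB1 group, stood at 0.870 FPKM in XD1B, from 30 fragments, and at 12.9 FPKM in lf2, from 417 fragments. The lf2 level was 14.8 times that of XD1B, with an interval from 10.2 to 22.2, and the log2 ratio was 2.89. The gene length recovered with these fragments, 1184 bases, equals that of its RefSeq entry. This held for DREB1G too, but not for the other members. Recovered and RefSeq lengths were 982 and 984 bases for DREB1B, 930 and 1071 for DREB1H, and 161 and 1020 for DREB1C. They were 2437 and 2044 bases for DREB2A and 1829 and 3351 for DREB2B. The recovered length is the smallest whole length that fits the FPKM values. Whether RefSeq lengths count the same bases was not checked, so unequal lengths need not conflict. DREB1A was under FPKM 1 in the wild type and well above it in lf2. Its log2 ratio lay just under percentile 95 of the 22150 measured genes, which was 2.90, so many other genes differed upwards at least as much. Among all genes listed, the level of DREB1A moved from percentile 64.6 in XD1B to percentile 82.5 in lf2. Genes at 0 FPKM in XD1B already stand at percentile 48.9 on that scale.

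DREB1B (LOC_Os09g35010), which is also cold-inducible in rice, stood at 2.48 FPKM in XD1B and 4.54 in lf2, from 71 and 122 fragments. Its ratio was 1.83, with an interval from 1.35 to 2.48. DREB1H (LOC_Os09g35020), a close relative, stood at 2.14 and 3.89 FPKM, from 58 and 99 fragments, a ratio of 1.82 with an interval from 1.30 to 2.56. Both genes were higher in lf2 beyond counting error, but their log2 ratios of 0.67 and 0.64 fell short of the 2-fold rule.

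DREB1A, DREB1H and DREB1B are neighbours on chromosome 9, in that order or its reverse, with 0 other genes between them in the RefSeq gene table. Despite this proximity they did not differ alike. The ratio of DREB1A was 8.09 times that of DREB1B, with a counting interval from 4.93 to 13.4, and 8.14 times that of DREB1H, with an interval from 4.85 to 13.8. The ratios of DREB1B and DREB1H differed by a factor of 1.01, with an interval from 0.635 to 1.59. These comparisons hold whatever the scaling between the libraries, because a common factor cancels. The cluster summed to 5.50 FPKM in XD1B and 21.3 in lf2, and DREB1A made up 15.8% of that sum in XD1B and 60.4% in lf2. How reads shared by these related genes were assigned is not stated, so the split between them is uncertain.

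**Figure D1:**
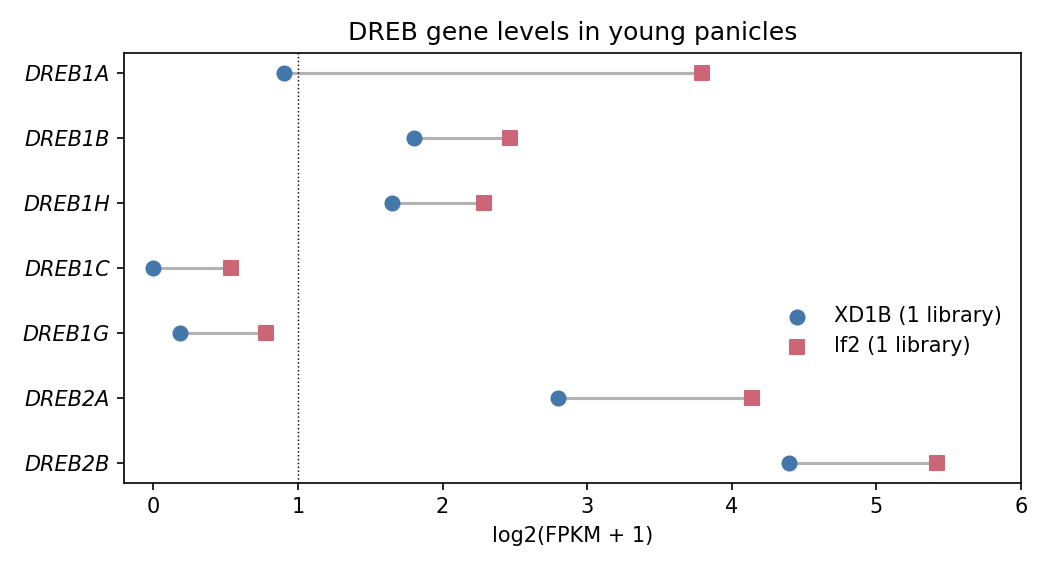
Level of each DREB gene as log2(FPKM + 1), horizontal axis, in the single XD1B library (circles) and the single lf2 library (squares); grey lines join the values of a gene and the dotted line marks FPKM of 1. Every square lies to the right of its circle, and the longest line is that of DREB1A, from 0.870 to 12.9 FPKM.

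Most loci around the cluster were not higher in lf2. Of the 10 loci before and 10 after it by locus number, 13 were measured. Of these 13, 2 met the 2-fold rule upwards and 0 downwards, beside 15.3% and 8.23% of all measured genes, and their median log2 ratio was -0.38, beside -0.31 over all measured genes. The adjacent locus on the DREB1B side, LOC_Os09g35000, stood at 8.87 FPKM in XD1B and 5.13 in lf2, a log2 ratio of -0.69. On the DREB1A side the next identifier in the table is LOC_Os09g35530, so the loci there may lie farther away than their order implies. It stood at 0.0117 FPKM in XD1B and at 0 in lf2.

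**Figure D2:**
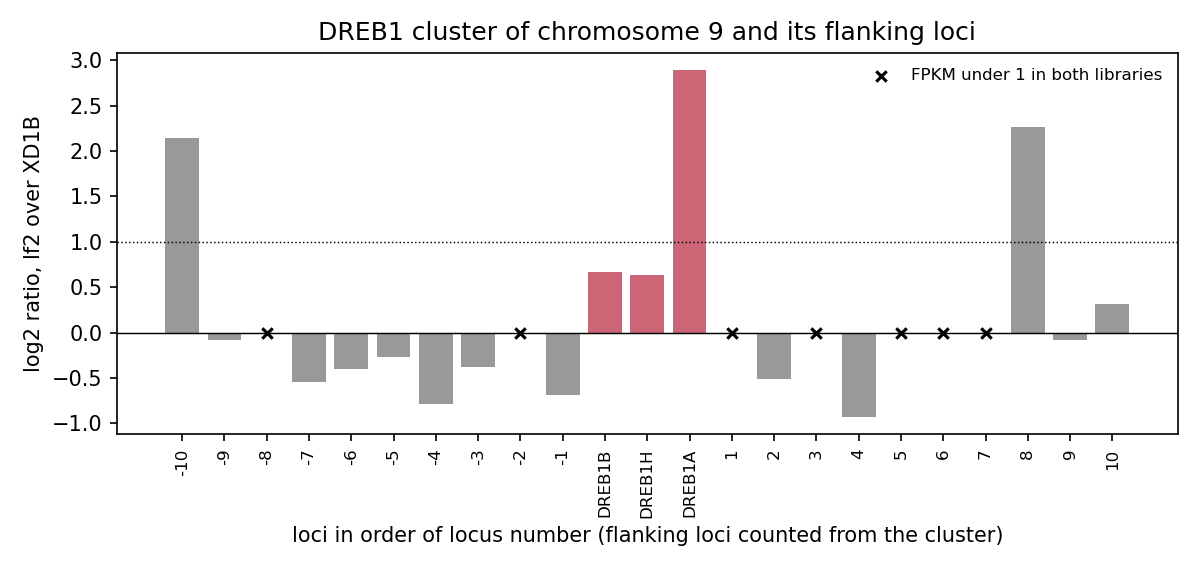
Log2 ratio of lf2 over XD1B (vertical axis, pseudocount 1) for the DREB1 cluster of chromosome 9, coloured bars, and for 10 loci on each side in order of locus number, grey bars; crosses mark loci under FPKM 1 in both libraries and the dotted line the 2-fold rule. DREB1A reaches 2.89 while the flanking loci have a median of -0.38, and 2 of them, at -10 and 8, pass the rule.

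The other DREB1 genes were barely detected. DREB1G (LOC_Os02g45450), on chromosome 2, stood at 0.135 FPKM in XD1B and 0.718 in lf2, from 5 and 25 fragments. The ratio was 5.32, but so few fragments leave an interval from 2.00 to 17.8. DREB1C (LOC_Os06g03670), on chromosome 6, was listed at 0 in XD1B and at 0.454 FPKM in lf2. Its fragment number in lf2 is known only to be 2 or a multiple of it. If the gene were as long as its RefSeq entry of 1020 bases the level would stand for 12.7 fragments. No ratio is given for it. Both genes stayed under FPKM 1 in either library, and no difference between genotypes can be read from DREB1C at this depth.

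The DREB2 genes were the more abundant class in both genotypes. DREB2A (LOC_Os01g07120), a drought and salt responsive gene on chromosome 1, stood at 5.95 FPKM in XD1B and 16.7 in lf2, from 422 and 1111 fragments. This is a ratio of 2.80, with an interval from 2.50 to 3.14, and a log2 ratio of 1.35. DREB2B (LOC_Os05g27930), on chromosome 5, stood at 20.1 and 41.8 FPKM, from 1068 and 2091 fragments, a ratio of 2.08 with an interval from 1.93 to 2.24. Its log2 ratio of 1.02 lay just past the 2-fold rule, and the interval of its ratio spans a factor of 2. Rice DREB2B is known to be spliced into a form that encodes a full factor and one that does not. The table gives a single value per gene, so the levels of the separate forms were not analysed here.

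Between them the DREB2 genes summed to 26.0 FPKM in XD1B and 58.4 in lf2, and the 5 DREB1 genes to 5.63 and 22.5. The DREB2 share of the summed FPKM of all 7 genes was 82.2% in XD1B and 72.2% in lf2. The ratio of DREB2A was 1.34 times that of DREB2B, with an interval from 1.17 to 1.54, so even within this class the genes differed by unequal factors.

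Ordered by level in XD1B, DREB2B led, followed by DREB2A, DREB1B, DREB1H, DREB1A, DREB1G and DREB1C. The level of DREB1B was 1.16 times that of DREB1H, with an interval from 0.808 to 1.67, and this pair could not be ordered by counting error. DREB1H lay above DREB1A by a factor of 2.46, with an interval from 1.56 to 3.96. In lf2 the order was the same except that DREB1A stood in place 3 instead of 5. There DREB1A was 2.83 times as high as DREB1B, with an interval from 2.31 to 3.50, whereas in XD1B it had been 0.350 times as high, with an interval from 0.221 to 0.544. DREB2A kept a level 1.29 times that of DREB1A in lf2, with an interval from 1.16 to 1.45. DREB1B and DREB1H could again not be ordered, at a factor of 1.17 with an interval from 0.888 to 1.54.

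Of the 7 genes, 3 passed the 2-fold rule as higher in lf2, namely DREB1A, DREB2A and DREB2B, and 0 as lower. Among all 57446 genes listed, the shares past the rule were 5.91% upwards and 3.17% downwards. Among the 22150 measured genes they were 15.3% and 8.23%. Of the DREB genes 5 were measured, DREB1A through lf2 alone, and a gene that is measured only where it is high had to differ. The libraries also differ in scale. Over genes reaching FPKM 5 in XD1B and lf2 alike, the median ratio of lf2 to XD1B was 0.760. After rescaling lf2 to a median ratio of 1, DREB1B narrowly joined the genes past the rule and DREB1H missed it at a log2 ratio of 0.96, against a background of 19.6% higher and 1.73% lower. With a pseudocount of 5, DREB1A alone of the DREB genes passed, beside 2183 of the 22150 measured genes upwards.

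**Figure D3:**
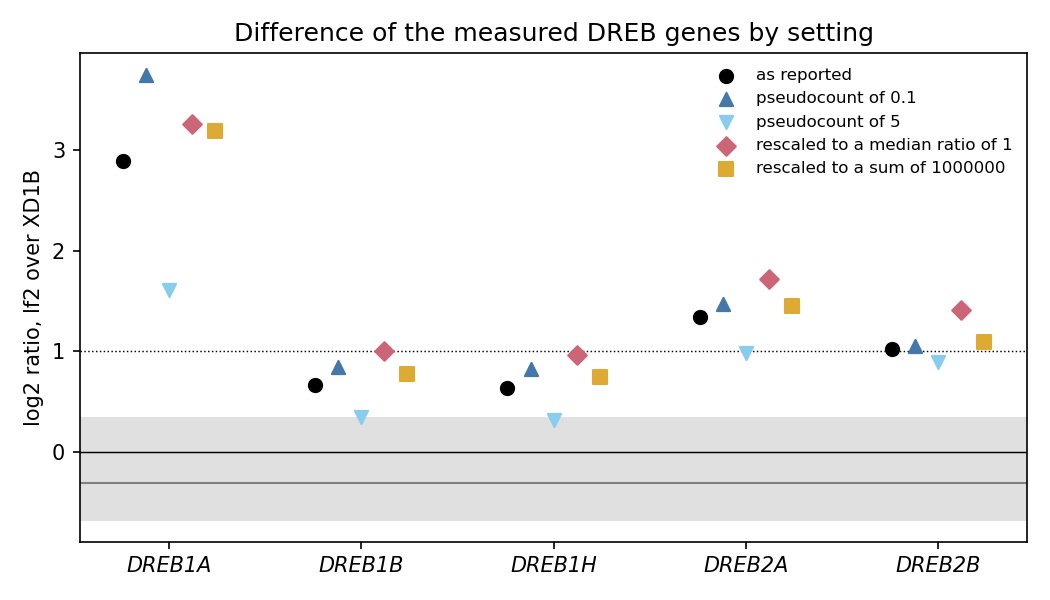
Log2 ratio of lf2 over XD1B (vertical axis) for the 5 measured DREB genes, under the reported setting (black circles), other pseudocounts and rescaled libraries; the grey band spans percentiles 25 to 75 of the 22150 measured genes as reported, the grey line their median of -0.31, and the dotted line the 2-fold rule. All points lie above 0, a sign that none of these settings could reverse. DREB1A passes the rule under all 5 settings drawn, from 1.61 with a pseudocount of 5 to 3.74 with one of 0.1.

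Among 8 further DREB-type genes, not all of them of the DREB1 or DREB2 type, 3 DREB1 genes were listed at 0 in XD1B and were detected in lf2. These 3 were the measured ones, in each case through lf2 alone, so they had to differ upwards, and they met the 2-fold rule, which 5.91% of all genes listed and 15.3% of measured genes did. Of the other genes, 3 had a lower and 1 a higher level in lf2, all under FPKM 1, and 1 was at 0 in both. The median log2 ratio over all 8 was 0.05, beside 0 over all genes listed. DREB1I, listed at 0 in XD1B, stood at 3.05 FPKM in lf2. That is 14.5 times a floor of 3 fragments in XD1B, with counting error in lf2 left out. The neighbour of DREB1I on chromosome 8, DREB1J, stood at 0 and 2.14 FPKM, 18.1 times such a floor. DREB1F, on chromosome 1, stood at 0 and 2.06 FPKM, 18.8 times such a floor. The rest stayed low in both genotypes. DREB1E, a further DREB1 gene, stood at 0.163 and 0.139 FPKM, and DREB2C was listed at 0 in both libraries.

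Genes that act before the DREB1 genes went in both directions. Of 6 such regulators, all measured, 2 met the 2-fold rule upwards and 2 downwards, beside 15.3% and 8.23% of all measured genes. The median log2 ratio was -0.53, beside -0.31 over those genes, and -0.15 under the scaling that sets the median ratio to 1, where all measured genes had 0.05. MPK3, a stress-activated protein kinase that acts in cold signalling, stood at 1.42 FPKM in XD1B and 7.16 in lf2, a ratio of 5.06 with an interval from 3.87 to 6.70. MYBS3, a MYB-type repressor of DREB1 transcription in cold-treated rice, stood at 26.7 and 65.6 FPKM, a ratio of 2.46 with an interval from 2.30 to 2.63. The membrane protein gene COLD1, linked to chilling tolerance, stood at 18.5 and 14.5 FPKM and did not pass the rule. The pair with lower levels past the rule was not matched by symbol in the RefSeq gene table and is not named. Its genes stood at 48.6 and 37.6 FPKM in XD1B and at 17.7 and 14.9 in lf2. After rescaling to a median ratio of 1, 1 gene of that pair remained past the rule, beside 1.73% of all measured genes downwards.

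Genes listed as cold and drought targets, among them known or proposed DREB targets, passed the 2-fold rule in 1 direction. Of 17, 14 were measured, 5 of these through lf2 alone. The rule was met upwards by 9 and downwards by 0, beside 15.3% and 8.23% of all measured genes. Of these 9, 4 were measured through lf2 alone and so had to differ upwards. With a pseudocount of 5 the number upwards was 6, beside 2183 of all measured genes. The median log2 ratio over all 17 was 1.11, beside 0 over all genes listed and -0.31 over those measured, and it fell to 0.65 with a pseudocount of 5. SALT, a lectin gene that responds to salt stress, stood at 0.299 FPKM in XD1B and 5129 in lf2. LTI6B, which encodes a small membrane protein induced by low temperature, stood at 9.36 and 278 FPKM, a ratio of 29.7 with an interval from 23.6 to 37.8. Dehydrin genes were not alike. RAB16A stood at 0.427 and 22.8 FPKM. RAB16B was listed at 0 in XD1B and stood at 7.02 in lf2, 70.5 times a floor of 3 fragments in XD1B. The RAB16 genes are close relatives, as are DREB1I and DREB1J, and reads may have been split between them. LIP9, a dehydrin gene reported as a DREB1 target in rice, stood at 56.1 and 123 FPKM, a ratio of 2.20 with an interval from 2.09 to 2.31. RAB25 stood at 1.13 and 0.957, with an interval of the ratio from 0.588 to 1.21 that includes 1. LTI6A, the sister gene of LTI6B, stood at 83.4 and 68.8 FPKM, and P5CS1, of proline synthesis, at 64.6 and 57.1. HSFA3, the heat shock factor gene that DREB2 proteins activate in Arabidopsis, stood at 0.968 and 2.27 FPKM, a log2 ratio of 0.73.

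**Figure D4:**
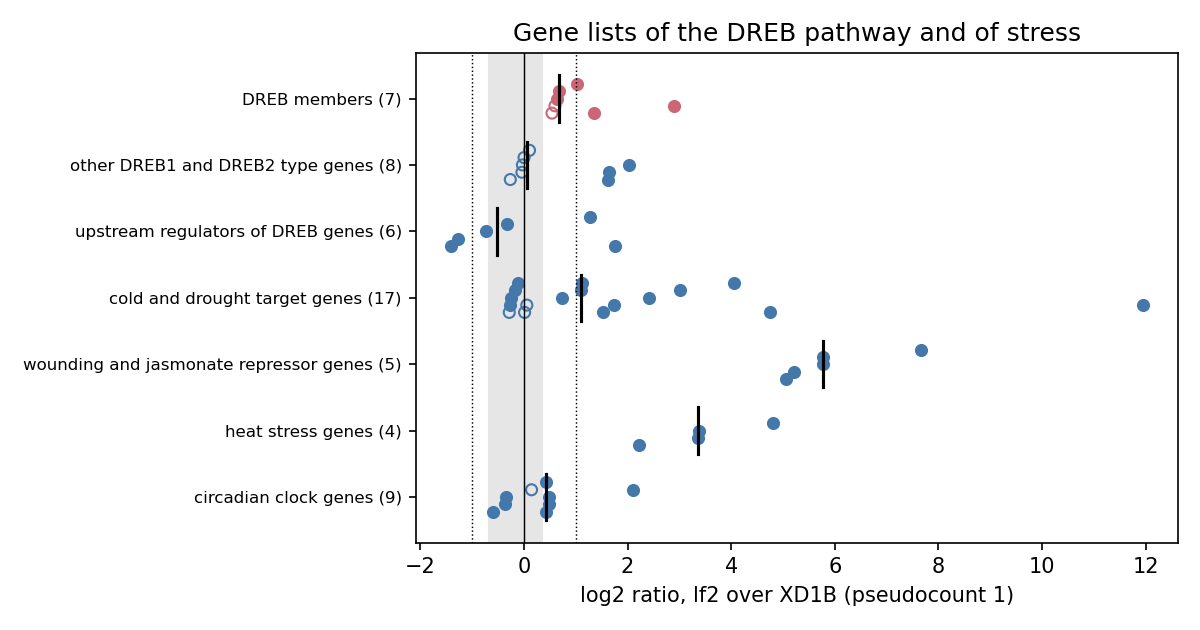
Log2 ratio of lf2 over XD1B (horizontal axis, pseudocount 1) for every gene of each list, number of genes in brackets; filled points are measured genes, open points are not, black bars are medians over all genes of the list, the grey band spans percentiles 25 to 75 of the 22150 measured genes and dotted lines mark the 2-fold rule. The 7 DREB genes lie between 0.54 and 2.89, the wounding and heat lists lie wholly above 2, and the regulators fall on both sides of 0.

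Wounding and heat stress markers were higher in the same library. All 5 jasmonate repressor genes of the TIFY family, which wounding induces, met the 2-fold rule upwards, beside 15.3% of all measured genes, 2 of them measured through lf2 alone. They had a summed FPKM of 8.84 in XD1B and 734 in lf2. All 4 heat stress genes met the rule as well, at a summed FPKM of 92.6 and 1885. Their median log2 ratios were 5.77 and 3.37, in that order. TIFY10C stood at 6.15 FPKM in XD1B and 265 in lf2, and TIFY11D at 1.46 and 81.2. The other 3, consecutive in locus number on chromosome 3, were named by their order in the RefSeq gene table and not by identifier. They are TIFY11A (LOC_Os03g08310), at 0.0659 and 57.3 FPKM, TIFY11C (LOC_Os03g08320), at 0.0777 and 217, and TIFY11B (LOC_Os03g08330), at 1.09 and 113. Among the heat stress genes, the small heat shock protein genes HSP17.9A and HSP16.9A stood at 58.3 and 1658 FPKM and at 4.16 and 51.7 FPKM. HSP101, a chaperone gene, stood at 26.5 and 128, and the heat shock factor gene HSFA2A at 3.64 and 47.3. The clock gates transcription of the DREB1 counterparts in Arabidopsis, so clock genes were followed too. Of 9, 8 were measured, 1 met the rule upwards and 0 downwards, beside 15.3% and 8.23% of all measured genes. The median log2 ratio over all 9 was 0.43, beside 0 over all genes listed and -0.31 over those measured. After rescaling to a median ratio of 1 it was 0.80, where all measured genes had 0.05. The clock gene past the rule was PRR95, a pseudo-response regulator gene, at 5.17 and 25.5 FPKM. GI, a clock gene of the late day, stood at 27.4 and 38.5. LHY, a morning clock gene, stood at 259 FPKM in XD1B and 204 in lf2, and PRR1, an evening clock gene, at 12.4 and 7.80. The part of handling, stress or collection time in the DREB levels was not tested.

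The genes nearest to DREB2B, the DREB gene with the highest level in lf2, were sought across the table by Euclidean distance of log2(FPKM + 1) over the 2 libraries. LOC_Os06g01200 was nearest, at a distance of 0.038, with 20.6 FPKM in XD1B and 41.8 in lf2. The next was an additional locus without a gene name, at a distance of 0.045, with 20.2 and 40.5 FPKM. With 2 libraries, such nearness describes a pair of levels and no more.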

How the data were processed

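The authors deposited FPKM per gene, with 1 column for the XD1B library and 1 for the lf2 library, as named per the file headers. Nothing in the sources used here states the aligner, counting tool, genome build or filters. Fragment totals were recovered as those for which FPKM values are whole fragments over whole-base lengths, within 0.0002 fragments plus 3e-07 of the number. A whole solution was found for 100% of 2000 genes above 0 in both libraries, and for 24.7% with a wrong total. Fragments per gene are lower bounds, since a common factor with length cannot be seen. The recovery was tested on simulated data.

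The members, the 10 gene and marker lists, the settings and the rule for naming genes were chosen with earlier results of these data known. That rule names all 7 members, from each list the genes of largest absolute log2 ratio (at most 4) together with all past the 2-fold rule if these number 5 or fewer, and the 2 genes nearest to the top member. Other list genes and the flanking loci named in the text were chosen after their values were seen. The RefSeq gene table of assembly ASM3414082v1 was matched by symbol, chromosome and place within 12% of the chromosome. All 7 members and 50 of 61 list genes matched, and the other 11 are counted but not named. Its coordinates are not printed, and promoter and protein sequences were not used here. Alternatives were pseudocounts of 0.1 and 5, no filter, a filter at FPKM of at least 5, and rescaling to a median ratio of 1 or a sum of 1000000. Computation used scipy 1.17.1, numpy 2.4.6 and pandas 2.3.3 under Python 3.11.15, with figures by matplotlib 3.10.9.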

Additional observations from a re-analysis of the deposited data

How the results depend on the processing

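No paired analysis was possible because each genotype has 1 library, and no replicate could be left out. All settings were planned. The 5 measured DREB genes kept a log2 ratio above 0 under each setting that could be run for them. That sign was fixed in advance and shows no robustness. Pseudocounts and filters cannot reverse the sign of a ratio, and both rescalings raise lf2 relative to XD1B. Only the size of the ratios could change. With a pseudocount of 5 the log2 ratios were 1.61 for DREB1A, 0.98 for DREB2A and 0.90 for DREB2B, so 1 DREB gene, 0 further DREB-type genes and 1 regulator were at least 2-fold higher, and 6 of the cold and drought target genes, whose median log2 ratio was 0.65. The same setting left 2183 of all genes past the 2-fold rule upwards and 648 downwards, and by construction it lowers the difference of low genes. With a pseudocount of 0.1 the log2 ratio of DREB1A was 3.74, and 2978 of all genes were at least 2-fold lower. Rescaling to a median ratio of 1 gave 1.72 for DREB2A and 1.41 for DREB2B, took the median of the regulators to -0.15, and left 1 regulator and 389 of all genes at least 2-fold lower, since it multiplies every lf2 value. At FPKM of at least 5, 0 further DREB-type genes remained to be counted. Depth limits DREB1C and DREB1G, which rest on few fragments.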
